A study of Xenopus tropicalis with 12 samples.

Results

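In the hind limb of Xenopus tropicalis tadpoles, 59 genes responded to thyroid hormone (T3) in opposite directions in wild type (WT) and TRα (-/-) animals. T3 raised 30 of them in WT and lowered them in TRα (-/-), and it lowered the other 29 in WT and raised them in TRα (-/-). They were chosen by their group means in CPM (counts scaled to a common library total): a mean of 1 CPM or more in the highest group, and a change of 1 or more on the log2(mean CPM + 0.1) scale in each genotype with opposite signs. The 59 genes were 0.412% of the 14320 genes tested, from 19921 in the deposited table. Because the T3 changes chose the genes, those changes are given below as description, without a test.

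T3 acts through nuclear receptors, TRα and TRβ, which bind DNA with a partner receptor. For genes that the hormone induces, the receptor without hormone recruits corepressors and the receptor with hormone recruits coactivators, so that loss of a receptor can free a gene from repression as well as blunt its induction. In the tadpole hind limb, T3 drives growth and patterning at the onset of metamorphosis, and TRα is the main receptor present at that time. Genes that T3 lowers are less well understood than those it induces.

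The 4 groups were WT without T3, WT with 10 nM T3 for 18 h, TRα (-/-) without T3 and TRα (-/-) with the same T3 treatment. Per the labels, all tadpoles were born from the same parents and were at stages 52 to 54. Both genotypes carried the TRβ gene. The study's methods state that wild type animals were purchased and that TRα (-/-) animals came from crosses of TRα (+/-) frogs. Its results name stage 54. Each group had 3 sequencing libraries made from a single RNA sample of hind limb, merged from several tadpoles, so the calls below (adjusted p) measure only the spread between libraries of a sample. A difference between animals cannot be told apart from a difference of genotype or treatment, and a change in the share of a cell type cannot be told apart from a change in RNA per cell. The libraries held between 32649742 and 52430305 counts each. The deposited table carries Ensembl gene IDs alone and 0 of the 19921 IDs matched the name table used here, so genes are given by ID and position on the JGI assembly used by the authors, and TRα itself, pathway lists and cell type markers were not analysed here.

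The opposite pattern was uncommon among genes that T3 moved in both genotypes. By the same measure and with the same minimum of 1 CPM, T3 changed 1640 genes by 2-fold or more in both genotypes. Of these, 810 were raised in both, 771 were lowered in both and 59 (3.60%) went in opposite directions. Opposite signs of any size were found for 3122 of the 13156 genes that reached 1 CPM. The plot of T3 changes shows the members at the edge of a cloud that runs from lower left to upper right.

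**Figure D1:**
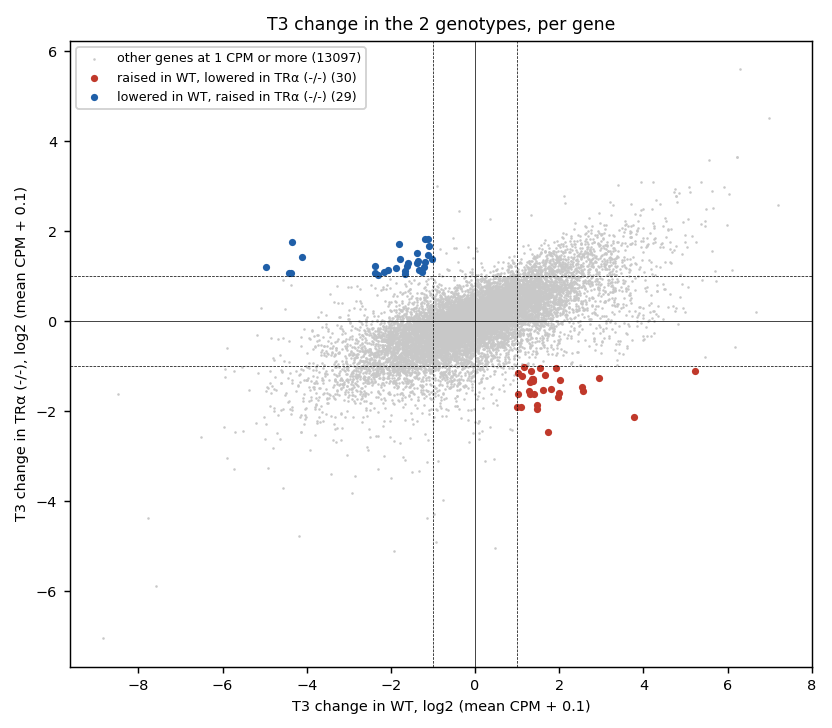
T3 change in WT (x axis) against T3 change in TRα (-/-) (y axis), both as differences of log2(mean CPM + 0.1), with 1 point per gene at 1 CPM or more. Red points are the 30 genes raised in WT and lowered in TRα (-/-), blue points the 29 genes with the reverse pattern, grey points all other genes, and dashed lines mark the thresholds of 1 and -1.

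The sizes of the T3 changes are described by direction, and the rule cut all of them at 1 log2 unit. For the 30 genes raised in WT the median log2 change was 1.47 in WT (range 1.0 to 5.22) and -1.49 in TRα (-/-) (range -2.46 to -1.01). For the 29 genes lowered in WT the median was -1.66 in WT (range -4.96 to -1.03) and 1.23 in TRα (-/-) (range 1.02 to 1.84). The WT change was the larger in 18 of the 30 and in 22 of the 29, beside 11131 of the 14320 genes tested. Among genes changed 2-fold or more in the same direction in both genotypes, it was the larger in 774 of 810 raised and 668 of 771 lowered. Changes of 4-fold or more in TRα (-/-) were seen in 2 of the 30 and 0 of the 29, against 6 and 10 in WT. Over all genes tested they were seen in 215 in TRα (-/-) and 2315 in WT, so a larger change in WT was not particular to the members. For all 59 genes the libraries without and with T3 did not overlap in either genotype, beside 68.7% of all genes tested. All 59 also passed edgeR's quasi-likelihood test (adjusted p under 0.05 and 2-fold or more) in both genotypes, as the choice of the genes implies. Over all genes tested, T3 raised 22.8% and lowered 25.1% in WT, and raised 7.14% and lowered 9.64% in TRα (-/-). The T3 change was higher in TRα (-/-) than in WT for 17.7% of them and lower for 16.6% by the same test.

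Some members lay close to the thresholds. Just inside were ENSXETG00000024895 (1.0 in WT and -1.91 in TRα (-/-) on the log2 scale), ENSXETG00000025541 (1.02 and -1.14) and ENSXETG00000019022 (1.17 and -1.01) among the genes raised in WT. Among those lowered in WT, ENSXETG00000018694 (-2.30 and 1.02), ENSXETG00000004741 (-1.03 and 1.37) and ENSXETG00000002138 (-1.66 and 1.04) were just inside. Just outside were ENSXETG00000024988 (2.87 and -0.99), ENSXETG00000000413 (0.98 and -0.98) and ENSXETG00000009955 (2.49 and -0.97) on one side, and ENSXETG00000020044 (-0.97 and 1.34), ENSXETG00000024009 (-1.04 and 0.96) and ENSXETG00000023425 (-1.13 and 0.95) on the other. The thresholds thus divide genes with nearly the same values, and ENSXETG00000020044, at a mean of 118 CPM in WT without T3, was more abundant than any member lowered in WT.

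**Figure D2:**
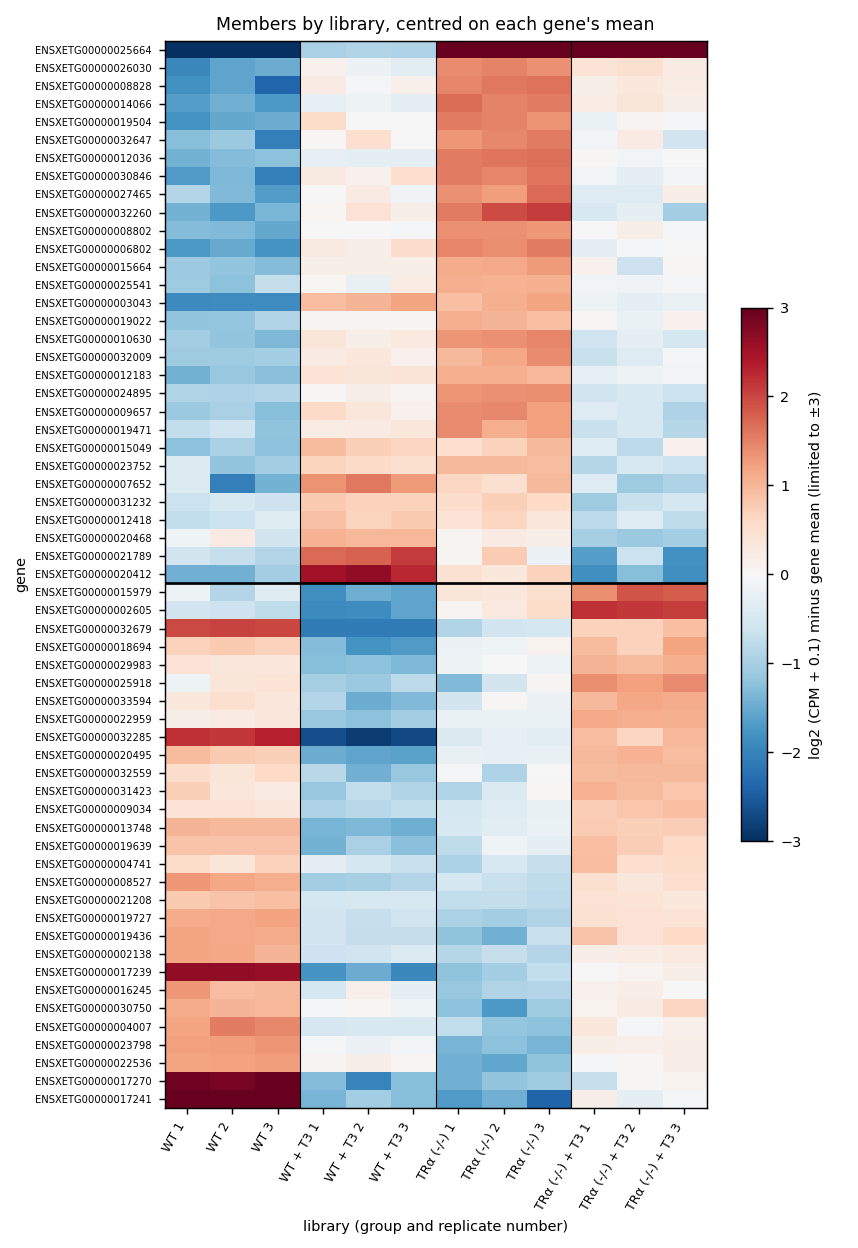
Level of each of the 59 genes (rows) in each of the 12 libraries (columns), as log2(CPM + 0.1) minus the mean of the gene over the libraries, with the colour limited to between -3 and 3. The 3 libraries of a group look alike in nearly every row, and most genes of the upper block are highest in TRα (-/-) without T3.

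Among the 30 genes raised in WT, the level was highest in TRα (-/-) without T3 for 23 and lowest in WT without T3 for 25. Over all 14320 genes tested these groups were highest in 2664 and lowest in 4887. By the rule, only TRα (-/-) without T3 or WT with T3 could be highest among the 30. The most frequent order, in 17 genes, was TRα (-/-) without T3, WT with T3, TRα (-/-) with T3 and WT without T3, from high to low. In another 6 genes both TRα (-/-) groups stood above both WT groups. The remaining 7 were highest in WT with T3. In 22 of the 30 every library of TRα (-/-) without T3 lay above every library of WT with T3, which held for 43.8% of all genes tested. In 24 of the 30, TRα (-/-) was above WT without T3 and below WT with T3. The rule makes this crossing likely. It was also seen in 3872 of the 14320 genes tested and in 585 of the 810 raised in both genotypes.

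ENSXETG00000006802, a gene of 42 exon blocks at GL172672.1:1113367-1205046 (+ strand), showed the pattern with changes of more than 2-fold in each genotype. It had 1.17, 1.37 and 1.12 CPM in WT without T3, and 4.95, 4.65 and 5.91 CPM with T3. In TRα (-/-) it had 11.5, 10.9 and 12.1 CPM without T3, and 3.31, 3.91 and 4.04 CPM with T3. The highest values were thus those of the knockout without hormone, and TRα (-/-) with T3 lay below WT with T3 in every library. ENSXETG00000009657 followed the same order, with 1.30, 1.43 and 1.15 CPM in WT, 4.41, 3.74 and 3.17 CPM in WT with T3, 7.93, 8.11 and 6.98 CPM in TRα (-/-), and 2.20, 2.04 and 1.47 CPM in TRα (-/-) with T3. So did ENSXETG00000010630, from a mean of 1.17 to 3.42 CPM in WT and from 7.52 to 2.0 CPM in TRα (-/-).

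In a second form of the pattern the mean of TRα (-/-) stayed above that of WT in both states. ENSXETG00000008802 had 5.23, 5.09 and 4.42 CPM in WT without T3 and 12.9, 12.9 and 12.6 CPM with T3, against 33.8, 33.6 and 32.2 CPM and then 13.1, 14.8 and 12.5 CPM in TRα (-/-). ENSXETG00000012036 had 6.15, 6.65 and 6.92 CPM in WT and 13.9, 13.3 and 13.4 CPM in WT with T3, against 49.0, 50.5 and 51.9 CPM and then 17.0, 15.6 and 16.6 CPM in TRα (-/-). For the first of these genes the genotypes overlapped with T3, and for the second they did not. ENSXETG00000014066 (5.18 to 5.56 CPM in WT with T3, 7.02 to 8.01 CPM in TRα (-/-) with T3) and ENSXETG00000008828 (means of 4.07 and 4.42 CPM in those groups) also belonged here. For ENSXETG00000008828 the genotypes overlapped with T3 (3.64 to 4.45 CPM in WT, 4.23 to 4.65 CPM in TRα (-/-)).

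ENSXETG00000012183 went from 5.07, 6.21 and 5.72 to 18.4, 17.6 and 18.0 CPM in WT and from 28.7, 28.9 and 27.6 to 11.5, 12.4 and 12.9 CPM in TRα (-/-), with no overlap between any 2 groups. In ENSXETG00000031232 both genotypes reached about the same levels at opposite ends: 2.63, 2.99 and 2.68 CPM rose to 7.22, 6.84 and 6.87 CPM in WT, while 6.09, 6.94 and 6.41 CPM gave way to 1.93, 2.59 and 2.85 CPM in TRα (-/-). The lowest-level members of this direction were few reads deep. In ENSXETG00000020412, for example, the 3 libraries of TRα (-/-) with T3 held 0, 2 and 0 counts and those of WT without T3 held 1, 1 and 3, against 94, 151 and 83 counts in WT with T3.

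**Figure D3:**
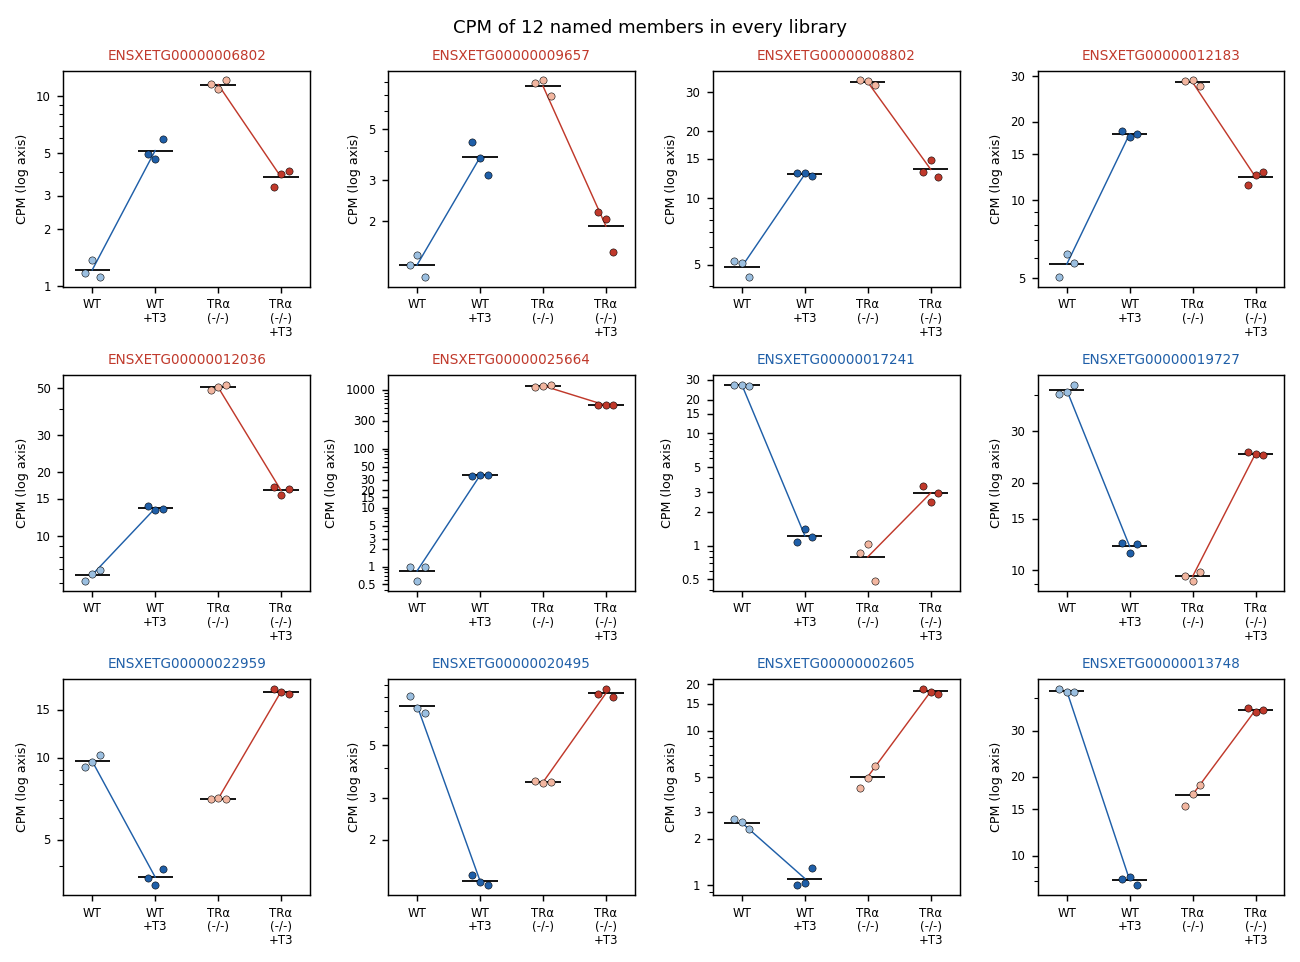
CPM (log axis) of 12 members in every library, in 4 groups along the x axis. Points are libraries, bars are group means, lines join the means of a genotype, red titles mark genes raised in WT and blue titles genes lowered in WT. The blue line (WT) and the red line (TRα (-/-)) slope in opposite directions in each panel, and the scale differs between panels.

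The 29 genes lowered in WT were more evenly divided. The level was highest in WT without T3 for 17 and in TRα (-/-) with T3 for 12, and it was lowest in WT with T3 for 18 and in TRα (-/-) without T3 for 11. The rule leaves only these groups as highest or lowest. Over all 14320 genes tested the same counts, in the same order, were 4971, 1935, 4916 and 2344. In 26 of the 29, TRα (-/-) was below WT without T3 and above WT with T3. The exceptions were 2 genes above WT in both states and 1 below WT in both. This crossing, which the rule again makes likely, was seen in 3668 of all genes tested and in 433 of the 771 lowered in both genotypes.

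ENSXETG00000019727, at GL172697.1:3227597-3238965 (- strand), had 40.2, 41.0 and 43.3 CPM in WT without T3, which became 12.4, 11.5 and 12.3 CPM with T3. In TRα (-/-) it had 9.54, 9.18 and 9.85 CPM without T3 and 25.4, 25.1 and 24.9 CPM with T3. The knockout without hormone thus lay below hormone-treated WT, and T3 brought it to a level between the WT groups. ENSXETG00000023798 (11.7 to 12.5 CPM in WT and 4.35 to 4.74 CPM in WT with T3, against 1.81 to 2.06 and 5.55 to 5.67 CPM in TRα (-/-)) and ENSXETG00000022536 (28.9 to 30.4 and 13.1 to 14.4 CPM, against 4.24 to 5.44 and 12.4 to 14.5 CPM) were also lowest in TRα (-/-) without T3. In ENSXETG00000022536 the genotypes overlapped with T3, and its means made it the 1 gene below WT in both states.

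ENSXETG00000013748, the most abundant member of this direction, had 43.3, 42.1 and 42.2 CPM in WT without T3 and 8.13, 8.31 and 7.70 CPM with T3. Its values in TRα (-/-) were 15.5, 17.1 and 18.7 CPM without T3 and 36.6, 35.4 and 35.9 CPM with T3. Every library of TRα (-/-) with T3 was thus below untreated WT and above the other groups. ENSXETG00000020495 had 8.05, 7.16 and 6.87 CPM in WT, 1.41, 1.32 and 1.28 CPM in WT with T3, 3.52, 3.45 and 3.50 CPM in TRα (-/-) and 8.21, 8.66 and 8.01 CPM in TRα (-/-) with T3. ENSXETG00000032285 had the largest WT change of the direction by the measure of the rule, from 7.03, 6.69 and 7.69 CPM to 0.146, 0.116 and 0.136 CPM, the latter resting on 7, 8 and 7 counts, while TRα (-/-) had 1.05, 1.20 and 1.14 CPM without T3 and 2.84, 2.34 and 3.01 CPM with T3.

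ENSXETG00000002605 was, with the low-count ENSXETG00000015979, 1 of the 2 genes above WT in both states, at 4.24, 4.94 and 5.95 CPM without T3 and 18.7, 18.0 and 17.4 CPM with T3 in TRα (-/-), against 2.69, 2.58 and 2.32 CPM and then 0.999, 1.03 and 1.28 CPM in WT. ENSXETG00000032679 had no count in any library of WT with T3 and 50, 52 and 64 counts in WT without T3. With 3 counts over the group assumed in place of 0, its level would be 91.3-fold higher in WT without T3. The 95% limits from counting were 0 to 0.0219 CPM in WT with T3 and 1.39 to 1.89 CPM in WT without T3.

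The genotypes were compared at each T3 state to describe these orders. This is no test either, since the rule places the genotype difference with T3 at least about 2 log2 units from that without T3. Without T3, 29 of the 30 genes raised in WT were called higher in TRα (-/-) and 0 lower (the same test), beside 13.0% and 7.35% of all genes tested. With T3, 1 was called higher and 10 lower, beside 11.4% and 3.77%. Of the 29 genes lowered in WT, 2 were called higher and 19 lower without T3, and 22 were called higher and 0 lower with T3.

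The genotype difference averaged over both T3 states was also taken from the edgeR fit. As a contrast it is orthogonal to both T3 changes, but it is built from the same group means that chose the genes, and the minimum of 1 CPM in the highest group bears on it, so it is given as description as well. Among the 30 genes raised in WT, 16 (53.3%) were called higher and 3 lower in TRα (-/-), beside 6.10% higher and 1.35% lower over all genes tested, and 5.11% and 1.03% of those that reached 1 CPM. The group that reached the minimum was most often TRα (-/-) without T3, which was highest in 23 of the 30. The median log2 difference of the 30 was 1.01, against 0.047 over all genes tested, and 24 of the 30 were positive. An average hides the state it comes from: 29 of the 30 were called higher without T3, and 1 with T3. Among the 29 genes lowered in WT, 3 (10.3%) were called higher and 6 (20.7%) lower, with a median of 0.40. Of the genes that T3 raised in both genotypes 4.69% were higher and 0.617% lower, and of those it lowered in both 10.5% and 4.02%. On the log2(mean CPM + 0.1) scale the median was 0.95 for the 30 and 0.11 for the 29.

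These counts depended on the scaling and on the spread assumed between RNA samples. With total counts alone, 15 of the 59 were called higher and 11 lower in place of 19 and 9, while over all genes tested 873 higher and 194 lower became 442 and 669. With all counts of a group summed and an assumed coefficient of variation of 0.2 between RNA samples, the members stayed at 19 higher and 9 lower, beside 837 and 177 of the 14320 genes tested. With 0.4 they were 3 higher and 0 lower, beside 92 and 5.

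The largest difference was that of ENSXETG00000025664, which was 7.18 ± 0.045 log2 units higher in TRα (-/-) (SE of the fit). ENSXETG00000014066 was higher by 1.87 ± 0.066, ENSXETG00000012036 by 1.61 ± 0.037, ENSXETG00000008802 by 1.42 ± 0.048 and ENSXETG00000006802 by 1.39 ± 0.085. The 3 genes of this direction called lower in TRα (-/-) were the low-count ENSXETG00000020412 (-1.77), ENSXETG00000021789 (-1.34) and ENSXETG00000020468 (-1.09), all highest in WT with T3. For ENSXETG00000031232, whose levels mirrored each other, the difference was -0.15 ± 0.079.

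Among the genes lowered in WT, ENSXETG00000002605 was higher in TRα (-/-) by 2.52 ± 0.083, while ENSXETG00000017241 (-1.93 ± 0.11), ENSXETG00000022536 (-1.34 ± 0.052) and ENSXETG00000023798 (-1.19 ± 0.063) were lower. The other 2 called higher, ENSXETG00000015979 (3.41) and ENSXETG00000032679 (2.23), had 3 and 0 counts in all in WT with T3, and the fitted values of such genes depend on the prior count. ENSXETG00000019727 stayed under the fold threshold, at -0.53 ± 0.034.

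**Figure D4:**
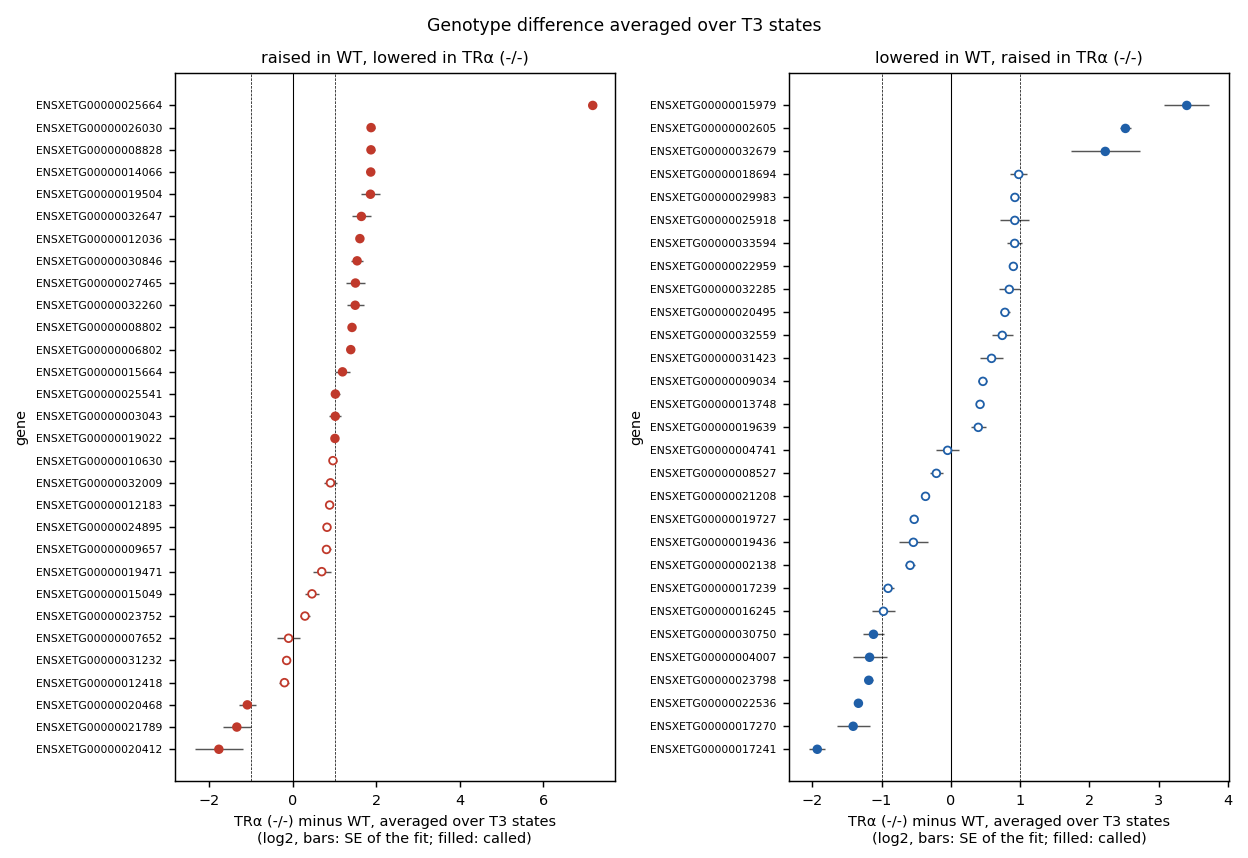
Genotype difference averaged over both T3 states (log2, TRα (-/-) minus WT) for each of the 59 genes, with the SE of the edgeR fit as error bars, sorted within each direction. Filled points passed the adjusted p and the 2-fold threshold, which dashed lines mark. Genes raised in WT lie mostly above 0 (24 of 30) and genes lowered in WT lie on both sides of it (15 of 29 above).

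The members were spread over 53 scaffolds, with 11 of them on 5 scaffolds that held more than 1. Members on a shared scaffold did not always move alike. At GL172942.1, ENSXETG00000008828 was raised in WT (log2 changes of 2.01 in WT and -1.32 in TRα (-/-)). ENSXETG00000020495, which started 364 kb further on, was lowered in WT (-2.37 and 1.22). At GL173192.1, 3 tested genes on the - strand showed nearly the same pattern: ENSXETG00000017270 (602540-640777, 41 exon blocks), ENSXETG00000017239 (649432-655106, 11 blocks) and ENSXETG00000017241 (681870-703636, 30 blocks). Their log2 changes were -4.41, -4.37 and -4.36 in WT and 1.08, 1.06 and 1.77 in TRα (-/-). The rise of ENSXETG00000017270 in TRα (-/-) rested on 24 summed counts without T3 and 69 with T3. It stayed a member in 9 of 12 sets with 1 library left out, and ENSXETG00000017239 in 11. Neither of these was a member with 1 CPM added before the logarithm, while ENSXETG00000017241 was. ENSXETG00000017241 had 27.2, 27.2 and 26.7 CPM in WT without T3 and 1.08, 1.41 and 1.19 CPM with T3, against 0.855, 1.05 and 0.484 CPM and then 3.44, 2.46 and 2.95 CPM in TRα (-/-). All 3 genes were thus high in a single group, WT without T3, and the gain with T3 in TRα (-/-) was small beside that level. ENSXETG00000017268, whose span (572209-672063, same strand) covers the first 2, changed by 0.49 in WT and 0.68 in TRα (-/-), so that the loss in WT was not shared by every gene of the stretch.

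At GL173292.1 the neighbouring ENSXETG00000022959 and ENSXETG00000033594, both on the + strand, also moved alike. The former had 9.22, 9.62 and 10.2 CPM in WT, 3.62, 3.40 and 3.91 CPM in WT with T3, 7.04, 7.09 and 7.03 CPM in TRα (-/-) and 17.9, 17.4 and 17.2 CPM in TRα (-/-) with T3. The latter had 2.91, 3.25 and 2.96 CPM, 1.21, 0.753 and 0.856 CPM, 1.55, 2.38 and 2.05 CPM, and 4.62, 5.30 and 5.16 CPM in the same groups. In both, every library of TRα (-/-) with T3 was above every other library.

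The short genes ENSXETG00000030846 and ENSXETG00000032260 at GL172941.1 and ENSXETG00000027465 and ENSXETG00000032647 at GL175354.1 had the same order of groups on separate scaffolds. It was the most frequent order among the 30 genes raised in WT, held by 17, and so was not particular to them. The group means ran from 0.134 to 0.36 CPM in WT, 0.571 to 1.71 CPM in WT with T3, 1.6 to 4.16 CPM in TRα (-/-) and 0.478 to 1.23 CPM in TRα (-/-) with T3. Whether they are copies of each other was not tested, and reads from near-identical copies cannot be told apart in such counts.

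ENSXETG00000025664 stood out by its level but lay close to the threshold in TRα (-/-). Its log2 change there was -1.10, and -0.98 with total counts alone, under which it was not a member. It had 0.982, 0.573 and 0.996 CPM in WT without T3 and 34.3, 36.3 and 35.5 CPM with T3, whereas TRα (-/-) had 1120, 1177 and 1223 CPM without T3 and 550, 544 and 546 CPM with T3. Per kilobase of exon its highest group mean was 2009 CPM, against 55.0 for ENSXETG00000013748 and 44.9 for ENSXETG00000012036. Its neighbour ENSXETG00000025667 at GL172993.1, also of 3 exon blocks on the - strand, missed the rule with log2 changes of 5.46 and -0.80, from 0.47 to 25.0 CPM in WT and from 1100 to 630.0 CPM in TRα (-/-). On the other side ENSXETG00000025663 went from 4313 to 8162 CPM in WT and from 10490 to 6931 CPM in TRα (-/-), which are log2 changes of 0.92 and -0.60, and ENSXETG00000001141 went from 1094 to 1866 CPM and from 1225 to 1464 CPM. Both genes on either side thus went in opposite directions in the genotypes, with smaller changes than the member in TRα (-/-), and ENSXETG00000001141 did not.

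**Figure D5:**
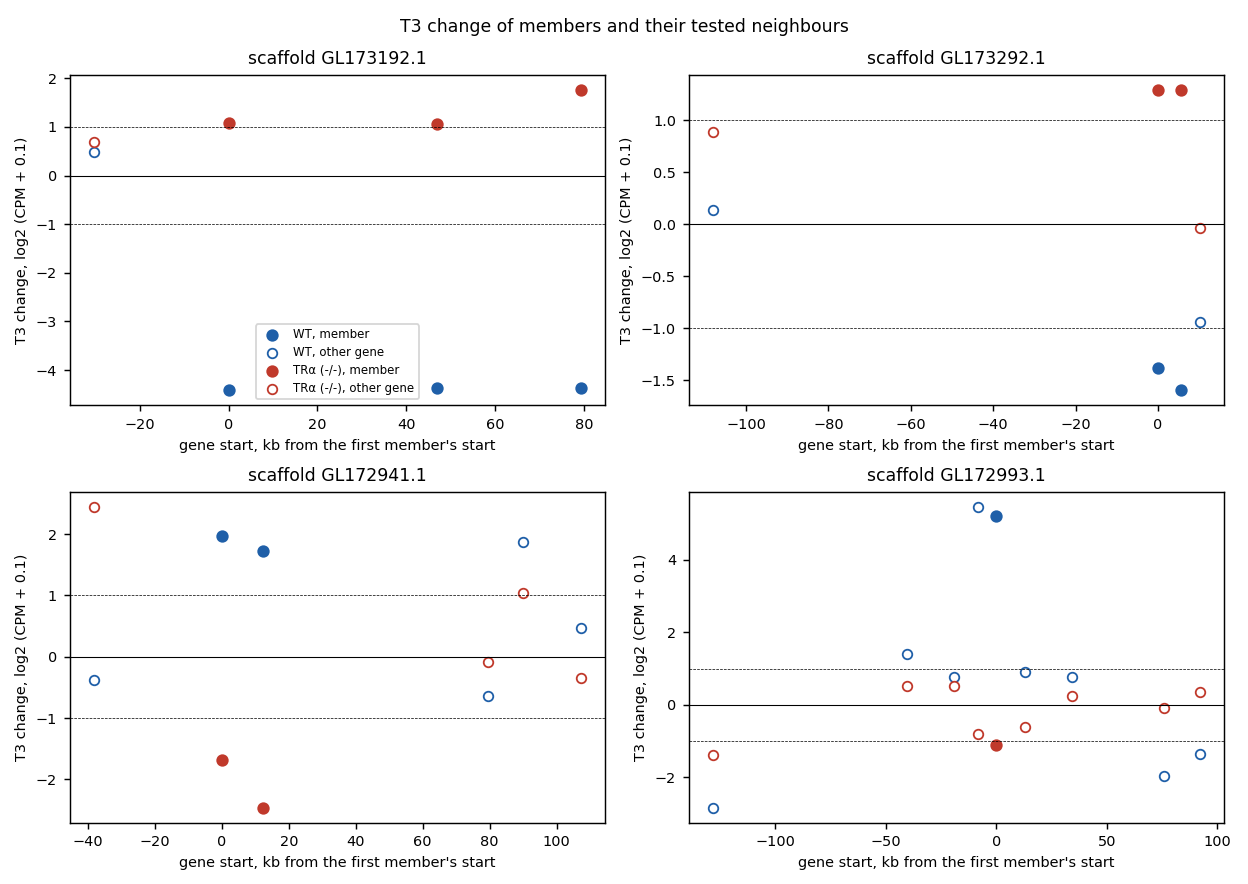
T3 changes of tested genes around members on 4 scaffolds, as differences of log2(mean CPM + 0.1) on the y axis against distance in kilobases from the first member on the x axis, with 1 mark for each genotype. Filled marks are members and open marks other genes, blue is WT and red is TRα (-/-), and dashed lines mark 1 and -1. The 3 members at GL173192.1 lie at -4.41, -4.37 and -4.36 in WT.

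The next tested gene on each side of a member was called by the same edgeR test. For the 30 genes raised in WT, 46 tested neighbours were not members themselves, and 10 of them (21.7%) were raised by T3 in WT, beside 22.8% of all genes tested. For the 29 genes lowered in WT, 17 of 39 neighbours (43.6%) were lowered in WT, beside 25.1%. In TRα (-/-), 5 of the 46 were lowered, beside 9.64%, and 2 of the 39 were raised, beside 7.14%.

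The members were low in abundance. The highest group mean was under 5 CPM for 30 of the 59 (50.8%), against 18.7% of tested genes that reached 1 CPM, 8.77% of those raised in both genotypes and 25.8% of those lowered in both. Genes lowered in WT were also short, with 14 of the 29 (48.3%) under 1000 bp of exon against 17.7% of tested genes at 1 CPM or more, and a median of 1371 bp against 2163 bp for the 30 genes raised in WT. A group summed to fewer than 30 counts in 11 of the 30 and 6 of the 29. This held for 1189 of the 14320 genes tested and 313 of the 13156 that reached 1 CPM. The exons of 1 member, ENSXETG00000019504, overlapped another gene, beside 1.13% of all genes tested. The part of abundance and length in the result was not tested.

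The choice of members rested partly on the scaling. The TMM factors of WT with T3 (1.32 to 1.35) lay apart from those of the other groups (0.854 to 0.956). With total counts alone 38 genes were raised in WT and lowered in TRα (-/-) and 18 showed the reverse, and 42 of these were among the 59. Total counts shifted the median change of all genes by 0.52 in WT and 0.12 in TRα (-/-). Both changes kept their sign in 59 of 59 members. Shifts of this size are too small to turn a change of 1 or more, so nothing is read from that count. Without any 1 library 45 of the 59 remained members, and 14 of these were also members under both other scalings and with 1 CPM added before the logarithm. These 14 were ENSXETG00000006802, ENSXETG00000009657, ENSXETG00000010630, ENSXETG00000014066, ENSXETG00000008828, ENSXETG00000031232, ENSXETG00000008802 and ENSXETG00000012183 among the genes raised in WT, and ENSXETG00000017241, ENSXETG00000019727, ENSXETG00000033594, ENSXETG00000020495, ENSXETG00000029983 and ENSXETG00000013748 among those lowered.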

How the data were processed

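RNA of hind limb was sequenced in 12 libraries. According to the study's methods, poly-A RNA was purified and 3 TruSeq libraries were made from each RNA sample, and the authors mapped reads with STAR and counted them per gene with featureCounts (versions 2.5.3a and 1.4.6-p3 in the submitters' processing notes, while the study's methods name other versions). The deposited table holds raw, unnormalized counts for each gene, with exon coordinates and exon length. Strand handling and reads mapping to several places are not given in the sources used here, so the 162 tested genes whose exons overlap another gene are uncertain. 1 of them, ENSXETG00000019504, was a member.

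Here, filterByExpr kept 14320 of 19921 genes (2363 had no count). Counts were scaled by TMM and fitted with edgeR 4.0.16 (glmQLFit, glmQLFTest) in R 4.3.3 over all 12 libraries, with 1 mean per group. Genes were called at a Benjamini-Hochberg adjusted p under 0.05 over all genes tested and 2-fold or more. CPM used TMM-scaled totals, and 0.1 CPM was added to group means before log2. The coefficient of variation between libraries was 0.0421, a technical value. Library pairs of a group differed by more than sampling noise (chi-square per degree of freedom 1.89 to 11.1). Scripts were tested on simulated data.

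Alternatives were DESeq2 1.42.0 and its size factors, total counts, other filters and thresholds, a replicate block, summed libraries with an assumed spread, and leaving out each library. Members and lists were chosen with earlier results of these data known. Genes named were, in each direction, the 10 with the largest smaller T3 change at 5 CPM or more and no overlap of libraries, the 5 most abundant, those just inside and outside the thresholds and those next to another member. ENSXETG00000020412, ENSXETG00000021789, ENSXETG00000020468, ENSXETG00000015979, ENSXETG00000032679, ENSXETG00000029983 and the neighbours of members were named after their values were seen. Name lists needed symbols and were not used.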

Additional observations from a re-analysis of the deposited data

Results flagged for a closer look

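For all 59 genes the T3 change differed between WT and TRα (-/-) in edgeR's interaction test at an adjusted p under 0.05 and 2-fold or more. Over all genes tested the T3 change was lower in TRα (-/-) in 16.6% and higher in 17.7%. The choice of the genes by opposite changes fixes the count of 59, and nothing is read from it.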

How the results depend on the processing

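The number of opposite genes (30 raised in WT and 29 lowered in WT) depended on the thresholds. It was 136 and 115 at 1.5-fold in each genotype, 1 and 0 at 4-fold, 9 and 11 with 1 CPM added before the logarithm, 13 and 16 with a minimum of 5 CPM, 18 and 21 where every library had to hold 10 counts or more, 38 and 18 with total counts alone, and 30 and 28 with DESeq2 size factors. Leaving out 1 library gave 28 to 34 and 27 to 33. Fewer genes could be members under the stricter limits. The cause of the shift with total counts was not tested.

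For the genotype difference averaged over T3 states, 19 of the 59 were higher and 9 lower in TRα (-/-). Where every library had to hold 10 counts or more, these were 11 and 3 (10 and 0 of the genes raised in WT, 1 and 3 of those lowered), with fewer members tested. By the adjusted p alone they were 39 and 15 (24 and 3, 15 and 12). With summed libraries and an assumed coefficient of variation of 0.4 they were 3 and 0 (1 and 0, 2 and 0), and with 0.2 they were 19 and 9. With total counts alone they were 15 and 11. Over all genes tested the counts of 873 and 194 became 545 and 87 with the minimum of 10 counts, 6022 and 4944 by the adjusted p alone, 92 and 5 with the assumed 0.4, and 442 and 669 with total counts alone. Leaving out 1 library gave 3 to 5 higher among the genes lowered in WT, with 5 without replicate 1 of TRα (-/-) without T3 and without replicate 1 of WT with T3, and 14 to 17 higher among those raised.

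Of 625 values for 35 named members, 601 kept direction and side of the threshold. ENSXETG00000004741, at -0.05 and not called, ranged from -0.13 to 0.017 when 1 library was left out. ENSXETG00000025541 and ENSXETG00000019022 lay near 2-fold and lost their call in 13 values, for example at 0.72 and 0.71 with total counts alone. Calls were gained in 7 values of 4 genes: ENSXETG00000017239 at -1.20 with total counts alone, and, when 1 library was left out, ENSXETG00000018694 at up to 1.07, ENSXETG00000033594 at 1.02 and ENSXETG00000010630 at up to 1.0.

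Libraries of equal replicate number did not deviate together (correlations from -0.052 to 0.084 over 18 pairs), and with the replicate number as a block 19 members were higher and 9 lower, and 873 and 192 genes over all tested. Depth limited the 17 members with a group under 30 counts. Since a group was 1 RNA sample, no setting measures variation between animals.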
